A study of Schizosaccharomyces pombe with 29 samples.

Results

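The 10 genes described here belong to the fission yeast Schizosaccharomyces pombe and encode heat shock proteins, chaperones and their regulator; their RNA was measured by RNA-seq. They were taken by name, with earlier results of these data known: ssa1, ssa2, sks2, hsp90, hsp104, hsp16, hsp9, mas5, sti1 and hsf1. All 10 were found among the 7016 genes of the deposited table. The 8 libraries came from 3 wild-type samples (WT), 3 samples of a strain overexpressing the rnhA gene of E. coli (pRnhA), and 2 samples of a strain deleted for both rnh1 and rnh201 (rnh1∆rnh201∆). Cells of every group grew in PMG, a minimal medium, and spent 3 hours at 34 °C before collection, so the level of these genes without that shift was not measured. The labels name neither the promoter of rnhA nor an empty-vector control, and do not say whether replicates were separate cultures, so p-values measure only the spread between these samples, which may be technical.

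Chaperones bind unfolded or aggregated proteins and help them reach or regain their shape. Hsp70 proteins work with Hsp40 partners on newly made and misfolded proteins, the co-chaperone Sti1 passes clients from Hsp70 to Hsp90, and the disaggregase Hsp104 pulls proteins out of aggregates. In yeasts the transcription factor Hsf1 drives the genes of many of these proteins, strongly so after heat shock. RNase H enzymes, which the strains lack or overproduce, cut the RNA strand of RNA-DNA hybrids.

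Values are the normalized counts of the deposited table, which hold at most 2 significant digits. They summed to between 8392168 and 9455805 per library, and the depth behind them is unknown. The deleted genes matched the labels: rnh1 was at 290 to 320 in WT and at 36 and 23 in rnh1∆rnh201∆, and rnh201 at 300 to 390 against 7 and 12. The libraries also differed in mating type. Replicates 1 and 2 of WT and of pRnhA and replicate 2 of rnh1∆rnh201∆ carried the transcript mat1-Mc, and the other 3 libraries carried mat2-Pc. Each strain thus had both types, and values within each type are given below. Fold changes are on the log2(value + 1) scale of one limma fit over 6456 genes, which all 10 genes entered, and a gene was called at a Benjamini-Hochberg adjusted p under 0.05.

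The inducible Hsp70 gene ssa1 (SPAC13G7.02c) was the one gene of the 10 called in both strains. Its normalized counts were 1200, 1100 and 780 in WT, 1600, 1600 and 1700 in pRnhA, and 2300 and 2100 in rnh1∆rnh201∆. No library of one strain overlapped those of another. The group means were 1027 ± 219 (SD, n = 3) in WT, 1633 ± 57.7 (SD, n = 3) in pRnhA and 2200 ± 141 (SD, n = 2) in rnh1∆rnh201∆. ssa1 rose by 1.12 on the log2 scale in rnh1∆rnh201∆, a 2.18-fold change (SE 0.16, limma adjusted p = 0.0482). It rose by 0.69 in pRnhA, or 1.62-fold (SE 0.14, limma adjusted p = 0.0158). The rounding of the deposited values could place these changes between 1.04 and 1.20 and between 0.60 and 0.78. The rnh1∆rnh201∆ call was lost without WT replicate 2 (1.18, adjusted p = 0.171), without either rnh1∆rnh201∆ library (1.06 and 1.19) and without any one pRnhA library (1.12 each time, adjusted p = 0.0725 to 0.12). The pRnhA call was lost without any one pRnhA library (0.71, 0.71 and 0.66, with limma adjusted p = 0.0575, 0.0677 and 0.0540).

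**Figure D1:**
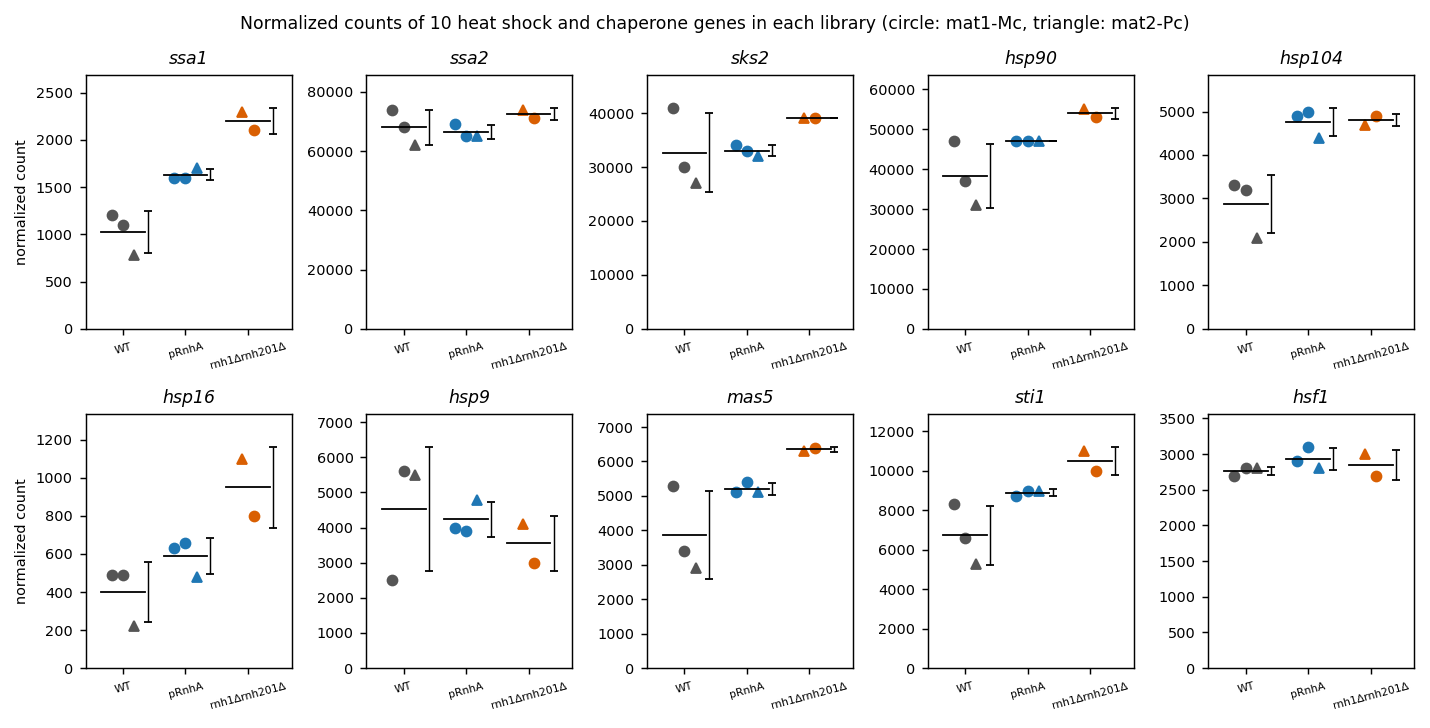
Normalized counts (vertical axis, linear from 0) of the 10 genes in each library, with the group mean (horizontal line) and SD (bar beside it). Circles are libraries with mat1-Mc and triangles those with mat2-Pc; ssa1 climbs from 780 to 1200 in WT to 1600 to 1700 in pRnhA and 2100 to 2300 in rnh1∆rnh201∆.

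The other cytosolic Hsp70 genes had far higher counts, which are not corrected for gene length, and neither was called in a strain. ssa2 (SPCC1739.13), a close paralog of ssa1, read 74000, 68000 and 62000 in WT, 69000, 65000 and 65000 in pRnhA, and 74000 and 71000 in rnh1∆rnh201∆. The values of both strains lay within the WT range or touched it. Its log2 change was 0.10 in rnh1∆rnh201∆ (95% interval -0.32 to 0.51) and -0.03 in pRnhA (-0.40 to 0.34), with limma adjusted p = 0.795 and 0.908. Of the summed ssa1 and ssa2 counts, ssa1 held 1.24 to 1.60% in WT, 2.27 to 2.55% in pRnhA, and 3.01 and 2.87% in rnh1∆rnh201∆. Reads shared between these paralogs could be split between them in counting, and how such reads were treated is not given in the sources used here. sks2 (SPBC1709.05), which encodes a ribosome-bound Hsp70, read 41000, 30000 and 27000 in WT, 34000, 33000 and 32000 in pRnhA, and 39000 in both rnh1∆rnh201∆ libraries. WT replicate 1 was above every other library for this gene. Its log2 change was 0.28 in rnh1∆rnh201∆ (limma adjusted p = 0.429) and 0.04 in pRnhA (0.896).

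mas5 (SPBC1734.11) encodes an Hsp40 partner of the cytosolic Hsp70 proteins. It read 5300, 3400 and 2900 in WT, 5100, 5400 and 5100 in pRnhA, and 6300 and 6400 in rnh1∆rnh201∆. Both rnh1∆rnh201∆ libraries were above all of WT, while WT replicate 1 lay inside the pRnhA range. The log2 change was 0.76 in rnh1∆rnh201∆ (SE 0.21, limma adjusted p = 0.103) and 0.48 in pRnhA (SE 0.19, limma adjusted p = 0.108), neither past the threshold.

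hsp90 (SPAC926.04c), the chaperone of kinases and other signalling proteins, read 47000, 37000 and 31000 in WT, 47000 in all 3 pRnhA libraries, and 55000 and 53000 in rnh1∆rnh201∆. The pRnhA value thus equalled the highest WT library, and both rnh1∆rnh201∆ libraries exceeded it. The log2 change was 0.52 in rnh1∆rnh201∆ (SE 0.19, limma adjusted p = 0.173) and 0.32 in pRnhA (SE 0.17, 0.227). Its co-chaperone gene sti1 (SPCC645.14c) read 8300, 6600 and 5300 in WT, 8700, 9000 and 9000 in pRnhA, and 11000 and 10000 in rnh1∆rnh201∆. The strains did not overlap, in the order WT, pRnhA, rnh1∆rnh201∆. The log2 change of sti1 was 0.66 in rnh1∆rnh201∆ (SE 0.16, limma adjusted p = 0.0833) and 0.43 in pRnhA (SE 0.14, 0.0716), short of the threshold in both.

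hsp104 (SPBC16D10.08c), the disaggregase gene, read 3300, 3200 and 2100 in WT, 4900, 5000 and 4400 in pRnhA, and 4700 and 4900 in rnh1∆rnh201∆. Every library of either strain was above every WT library, and the strains overlapped each other. It rose by 0.76 on the log2 scale in pRnhA, or 1.69-fold (SE 0.16, limma adjusted p = 0.0162). That call was lost without pRnhA replicate 1 (0.74, adjusted p = 0.0642) or replicate 2 (0.72, 0.0779). In rnh1∆rnh201∆ the log2 change was 0.77 (SE 0.18, limma adjusted p = 0.0751), short of the threshold.

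hsp16 (SPBC3E7.02c) encodes a small heat shock protein that holds unfolded proteins. It read 490, 490 and 220 in WT, 630, 660 and 480 in pRnhA, and 1100 and 800 in rnh1∆rnh201∆. WT replicate 3 stood below all other libraries, and both rnh1∆rnh201∆ libraries above them. Its log2 change in rnh1∆rnh201∆ was the largest of the 10, at 1.32, but its error was also the largest (SE 0.34, limma adjusted p = 0.0913). In pRnhA it was 0.64 (SE 0.30, limma adjusted p = 0.172), and 0.64 with adjusted p = 0.0445 when replicate number was added as a block. hsp9 (SPAP8A3.04c) encodes another small stress protein. It read 2500, 5600 and 5500 in WT, 4000, 3900 and 4800 in pRnhA, and 4100 and 3000 in rnh1∆rnh201∆. All strain libraries lay within the WT range, and the log2 changes were -0.28 (limma adjusted p = 0.666) and -0.01 (0.989).

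hsf1 (SPAC2E12.02), the transcription factor gene, was the steadiest of the 10 in WT. It read 2700, 2800 and 2800 in WT, 2900, 3100 and 2800 in pRnhA, and 3000 and 2700 in rnh1∆rnh201∆. The highest library was 1.04 times the lowest in WT, and the strains overlapped WT. The log2 change was 0.04 in rnh1∆rnh201∆ (95% interval -0.12 to 0.20) and 0.08 in pRnhA (-0.06 to 0.23), with limma adjusted p = 0.776 and 0.386. These are RNA levels, and the activity of the Hsf1 protein was not measured.

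In rnh1∆rnh201∆ against WT, 1 of the 10 genes was called, against 0.294% of all genes tested, and 6 had an unadjusted p under 0.05, against 21.3%. The libraries of 6 genes (ssa1, hsp90, hsp104, hsp16, mas5 and sti1) were all above WT, against 15% of all genes. The median log2 change of the 10 was 0.59, beside 0.01 over all genes. In the authors' deposited table, made with DESeq2, those 6 genes were past an adjusted p of 0.05 and higher, against 6.94% of its genes, with log2 changes from 0.45 (hsp90) to 1.02 (ssa1). Without WT replicate 1, the limma fit called 8 of the 10 genes, hsp9 among them as lower (-0.66), against 19.6% of all genes in that fit. It called 2 without WT replicate 3, where 0.527% of all genes were called. It called 0 without WT replicate 2 or any one pRnhA library, where 0.0464% to 0.155% of all genes were called. In these fits 5 or 6 of the 10 had an unadjusted p under 0.05, against 957 to 1250 of the 6456 to 6460 genes tested. Leaving out an rnh1∆rnh201∆ library left a single one, so those fits are not counted here.

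In pRnhA against WT, 2 of the 10 genes were called, against a background of 20.2%, or 8.88% counting higher genes alone. Of the 10, 4 had an unadjusted p under 0.05, all of them higher, against 35.6% of all genes in either direction. Set against shares in either direction, neither count stood far from the background. The libraries of ssa1, hsp104 and sti1 were all above WT, 3 genes against 15.6%, and the median log2 change was 0.37 beside 0.00 over all genes. The authors' deposited table had 5 of the 10 higher at an adjusted p under 0.05 (ssa1, hsp90, hsp104, mas5 and sti1), against 14% of its genes. It prints hsp16 at 0.05, which was not counted. The limma count was 5 without WT replicate 1, where hsp90, mas5 and sti1 were added and 33.6% of all genes were called. It was 1 without pRnhA replicate 3, where 9.82% of all genes were called. It was 0 without pRnhA replicate 1 or 2, where 6.32% and 3.28% were called. In the last 2 fits 3 and 2 of the 10 had an unadjusted p under 0.05, against 1873 and 1773 of the 6460 genes tested in each. Both comparisons use the same WT libraries, so the similar order of the genes in them is not independent.

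Against each other, the strains gave 0 called genes of the 10 by limma (background 0.356%), and 1 gene, ssa1, had an unadjusted p under 0.05, against 12.5%. The log2 difference of ssa1, rnh1∆rnh201∆ minus pRnhA, was 0.43 (95% interval 0.06 to 0.79, limma adjusted p = 0.318). That of hsp16 was 0.68 (-0.09 to 1.46), and that of hsp104 was 0.01 (-0.39 to 0.42). The libraries of 7 genes were all higher in rnh1∆rnh201∆ than in pRnhA, against 17.9% of all genes, with hsp104, hsp9 and hsf1 as the exceptions. These intervals leave room for differences in either direction for every gene but ssa1.

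**Figure D2:**
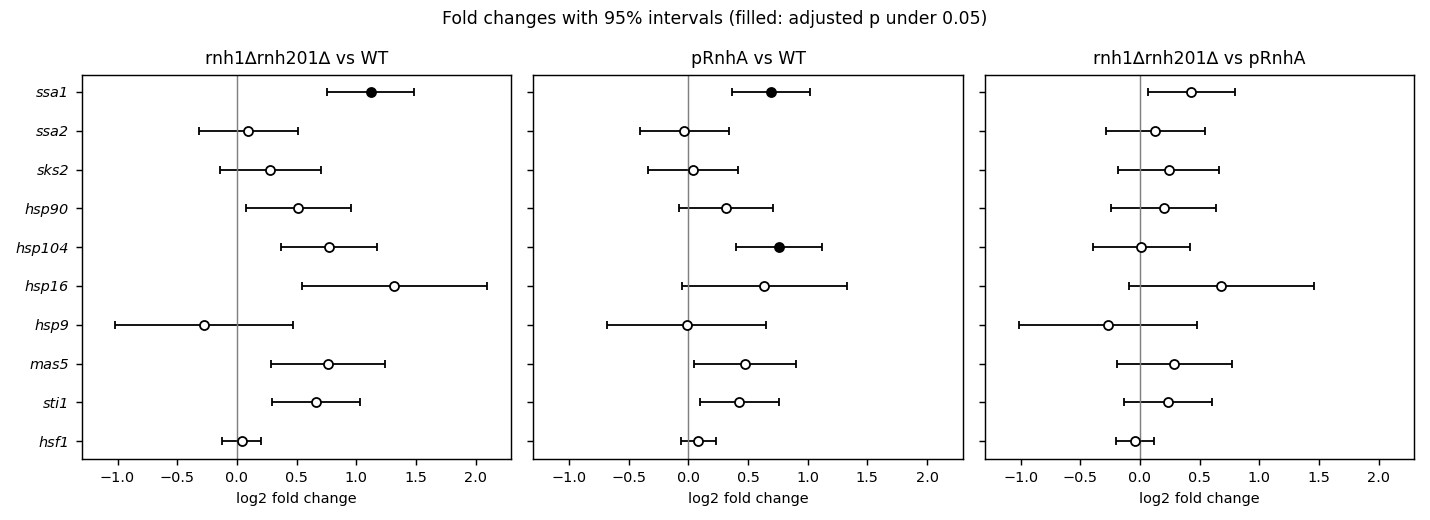
Log2 fold changes (horizontal axis) of the 10 genes in the 3 comparisons, with 95% intervals from the limma fit. Filled points have an adjusted p under 0.05: ssa1 at 1.12 in rnh1∆rnh201∆, and ssa1 at 0.69 and hsp104 at 0.76 in pRnhA.

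The genes varied together within WT. In WT replicate 1, 8 of the 10 were above their WT mean and the median deviation was 0.28 on the log2 scale, beside 0.03 over 4532 genes with a mean of at least 200. In WT replicate 3, 8 of the 10 were below it, with a median of -0.30 beside -0.03. hsp9 went the other way, at -0.77 in replicate 1 and 0.37 in replicate 3. In pRnhA the ratio of the highest to the lowest library reached at most 1.38, for hsp16, where in WT it reached 2.24, for hsp9. As a share of each library's total, the 10 genes held 1.97, 1.77 and 1.55% in WT, 2.09, 2.07 and 2.03% in pRnhA, and 2.32 and 2.17% in rnh1∆rnh201∆. Most of that was ssa2, hsp90 and sks2, which made up 83.5 to 87.2% of the sum.

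**Figure D3:**
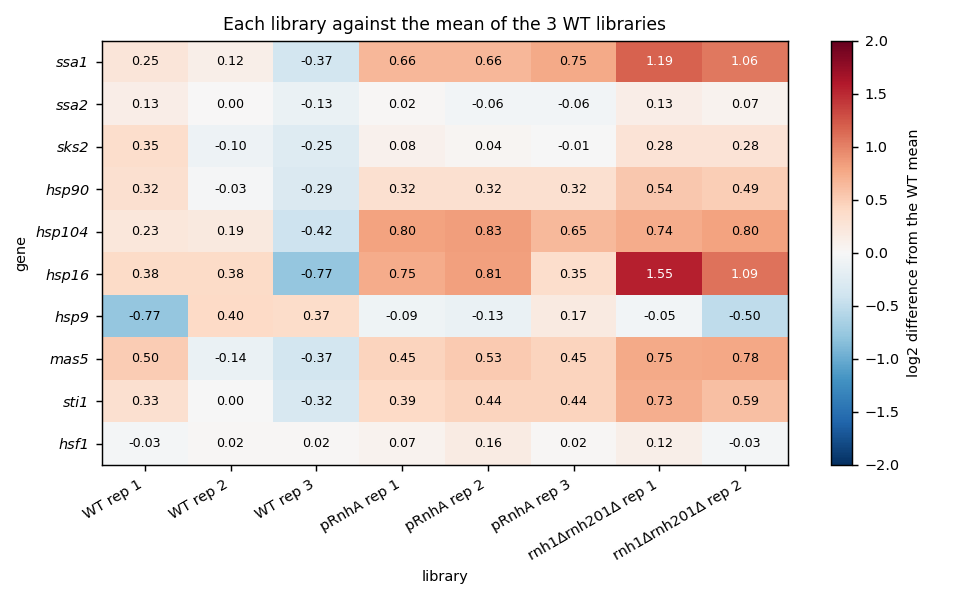
Log2 difference of each library (columns) from the mean of the 3 WT libraries, for each gene (rows), with red above and blue below that mean. WT replicate 3 is below the mean for 8 of the 10 genes, and hsp16 spans -0.77 in that library to 1.55 in rnh1∆rnh201∆ replicate 1.

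The size of the differences moved with the mating-type transcript. Among libraries with mat1-Mc, the log2 difference of rnh1∆rnh201∆ from WT was 0.87 for ssa1, 0.59 for hsp104 and 0.71 for hsp16. Between the single mat2-Pc libraries it was 1.56, 1.16 and 2.32. For these named genes the direction was the same in both types and the size was smaller among the mat1-Mc libraries. hsf1 turned sign, at -0.03 among mat1-Mc libraries and 0.10 between the mat2-Pc libraries. In pRnhA the values were 0.48 and 1.12 for ssa1, 0.61 and 1.07 for hsp104, and 0.31 and 0.81 for mas5. There ssa2 (-0.08 and 0.07), sks2 (-0.07 and 0.25) and hsp9 (0.08 and -0.20) turned sign, and hsf1 was larger among mat1-Mc libraries (0.12 and 0.00). A limma fit of the mat1-Mc libraries alone called 0 of the 10 genes in pRnhA (ssa1 and hsp104 each at adjusted p = 0.136). It also called 0 of all 6439 genes, so that count says nothing particular to the 10. There 3 of the 10 had an unadjusted p under 0.05, against 1509 of the 6439 genes. For rnh1∆rnh201∆ that fit rests on a single library, so only the log2 differences above are given. With the mating-type transcript as a term over all 8 libraries, ssa1 was called in rnh1∆rnh201∆ (1.14, limma adjusted p = 0.0423) and in pRnhA (0.69, 0.018), and hsp104 in pRnhA (0.76, limma adjusted p = 0.00877). The WT library with mat2-Pc is also the one with the low chaperone values, so within WT the mating type and that library cannot be told apart.

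Across the 8 libraries ssa1 correlated most closely with sti1 among the 10 (Pearson's r = 0.969), then hsp90 (0.942) and hsp16 (0.925), and with hsp9 at -0.387. The points share libraries and the strain differences, so these values describe the table only. Of 4522 other genes with a mean of at least 200, those most like ssa1 were wos2 (0.972), which encodes an Hsp90 co-chaperone, smd3 (0.97), a core spliceosomal protein gene, and rpc25 (0.968), an RNA polymerase III subunit gene, followed by hsp78 (0.964) and wis2 (0.961). The genes most like hsp104 were fes1 (0.99), which encodes a nucleotide exchange factor of Hsp70, trm8 (0.98), SPAC1705.02 (0.979), hsp78 (0.971) and hsp10 (0.969). Those most like hsp16 were thi201 (0.979), ccp1 (0.977), SPAC27D7.09c (0.973), tfg3 (0.97) and psi1 (0.961). SPAC27D7.09c read 630, 500 and 240 in WT, 640, 620 and 550 in pRnhA, and 1500 and 900 in rnh1∆rnh201∆, and like hsp16 was lowest in WT replicate 3.

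Other chaperone and related genes were followed in 6 lists of 43 different genes, called the chaperone lists, and general stress genes in a list of 14. The lists were chosen with earlier results of these data known. Their genes share the same WT libraries, so the genes of a list are not independent observations. In pRnhA, 8 of these 43 genes were called higher and 0 lower by limma, against 8.88% and 11.4% of all genes. Of the 43, 34 were above 0, with a median of 0.21 beside 0.00 over all genes. The authors' deposited table had 17 of them higher and 0 lower, against 14% and 18.5% of its genes. The limma count of higher genes was 22 without WT replicate 1, where 16.3% of all genes were called higher. Without another WT library or any one pRnhA library the count was 1 to 4, where 1.05% to 4.91% of all genes were called higher. It was 21 with values scaled to library totals, where 19.5% of all genes were called higher. hsp78 (SPBC4F6.17c), a mitochondrial relative of Hsp104, read 1900, 1600 and 1200 in WT against 2800, 2800 and 2900 in pRnhA, with no overlap. It rose by 0.88 (limma adjusted p = 0.00776), the largest called change among these lists. fes1 rose by 0.57 (0.0203), the Hsp90 activator gene aha1 by 0.53 (0.0477), wos2 by 0.46 (0.0242) and the mitochondrial chaperonin gene hsp10 by 0.46 (limma adjusted p = 0.0302). Smaller rises were those of cns1, an Hsp90 partner, by 0.41 (0.018), cct5, a subunit of the TRiC chaperonin, by 0.33 (0.0373) and xdj1, an Hsp40 gene, by 0.24 (limma adjusted p = 0.0471, or 0.0555 with replicate number as a block). Of these 8, hsp78 kept its call whichever library was left out and the other 7 did not. None of the 8 genes on the endoplasmic reticulum list was called in pRnhA by limma, against 20.2% of all genes. The list median was -0.03, with 0 genes at an unadjusted p under 0.05, against 35.6%. The authors' deposited table had 1 of them higher, against 14% of its genes. Of these 8, ire1, ero11 and ero12 do not themselves encode chaperones.

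In rnh1∆rnh201∆ limma called 0 of the 43, against 0.294% of all genes. At an unadjusted p under 0.05, 20 were higher and 1 lower, against 10.9% and 10.4% of all genes, and 39 of 43 were above 0, with a median of 0.21 beside 0.01. The authors' deposited table had 18 of them higher and 0 lower, against 6.94% and 8.49% of its genes. Without WT replicate 1 limma called 24 of the 43 higher, where 10.5% of all genes were called higher. Without another WT library or any one pRnhA library it called 0 or 1, where 0.0155% to 0.248% of all genes were called higher. Scaled to library totals it called 8, against 2.62% of all genes, and between 0 and 4 under the other settings tried. hsp78 read 3100 in both rnh1∆rnh201∆ libraries, a log2 change of 1.01 (limma adjusted p = 0.0505). That p lies at the threshold: hsp78 was called with library totals (0.0283), the trimmed mean (0.0414), a pseudocount of 10 (0.0495), the mating-type term (0.0423), robust variances (0.0271), and without WT replicate 1 (0.00231) or 3 (limma adjusted p = 0.0229). It was not called under the other settings, where the adjusted p reached 0.336.

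The stress list holds members and targets of the Sty1 kinase pathway, and its difference from the chaperone lists was not tested. In pRnhA, 6 of its 14 genes were called lower and 0 higher, against 11.4% of all genes called lower, and its median was -0.31. The authors' deposited table had 9 lower and 0 higher, against 18.5% and 14% of its genes. With 1 library left out, limma called from 2 (without pRnhA replicate 2) to 9 (without WT replicate 1) of the 14 lower, with 2.23% and 17.3% of all genes called lower in those fits, and 0 to 2 higher. It called 3 lower without WT replicate 2, pRnhA replicate 1 or pRnhA replicate 3, against 3.81%, 3.84% and 5.76% of all genes. Scaled to library totals, which moved the median of all genes by 0.11, 3 were called lower and 1 higher, against 5.81% and 19.5% of all genes. With that scaling gpx1 lost its call (-0.29, limma adjusted p = 0.0828). atf1, the transcription factor gene of the pathway, read 4400, 5000 and 4900 in WT and 3500, 3300 and 3400 in pRnhA, and fell by 0.49 (limma adjusted p = 0.00496). sro1 fell by 0.59 (0.01), the trehalase gene ntp1 by 0.47 (0.00609) and the glutathione peroxidase gene gpx1 by 0.40 (limma adjusted p = 0.0241). atf1 and ntp1 kept their calls whichever library was left out; sro1 and gpx1 did not. In rnh1∆rnh201∆ limma called 0 of the 14, against 0.294% of all genes. At an unadjusted p under 0.05, 6 were lower and 1 higher, against 10.4% and 10.9% of all genes. The authors' deposited table had 6 lower and 0 higher, against 8.49% and 6.94% of its genes. Without WT replicate 1 limma called 7 lower and 1 higher, against 9.04% and 10.5% of all genes. Without WT replicate 3 it called 1 higher, against 0.248% of all genes. atf1 read 3700 and 3900 there, a log2 change of -0.33 (limma adjusted p = 0.0742).

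**Figure D4:**
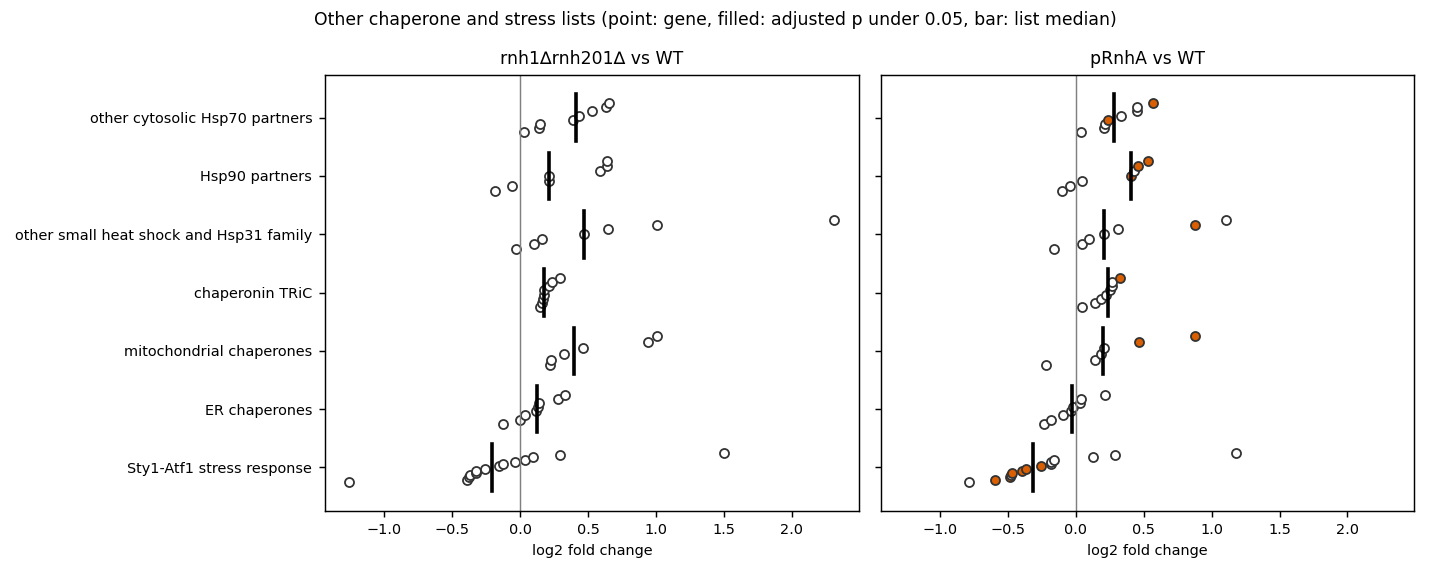
Log2 fold changes (horizontal axis) of the genes in 7 chaperone and stress lists (rows), for each strain against WT. Points are genes, filled where the limma adjusted p was under 0.05, and bars are list medians. In pRnhA the stress list has its median at -0.31. The chaperone lists have theirs between -0.03 (endoplasmic reticulum list) and 0.41 (Hsp90 partners).

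In the RefSeq annotation of assembly ASM294v3, 8 of the 10 genes overlap another gene, and hsp90 and hsp16 overlap none. ssa2 overlaps ppe1 (2000 to 2600 in these libraries), mas5 overlaps alg12 (890 to 1100) and hsf1 overlaps SPAC2E12.03c (250 to 820). ssa1 overlaps the noncoding SPNCRNA.811, listed at 0 to 5, and hsp9 overlaps SPNCRNA.1071, at 11 to 21. The library kit keeps strand, but whether counting used it is not given in the sources used here, so values of these overlapping genes are uncertain to that extent.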

How the data were processed

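RNA was measured in 8 RNA-seq libraries (3 WT, 3 pRnhA, 2 rnh1∆rnh201∆). Per the labels' protocols, total RNA was taken with hot phenol, a directional mRNA library kit was used and single reads of 50 bases were sequenced. The other 18 DRIPc-seq and 3 small RNA samples of the series were not used. Per the submitters' processing notes, the authors named TopHat2 2.0.5, DESeq2 and the builds ASM294v2 and hg19, with no roles; the counting tool and annotation are not given in the sources used here.

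The authors deposited DESeq2 normalized counts for 7016 genes, handled here as a score because every value is whole and rounded to 2 significant digits. They also deposited log2 fold changes and adjusted p-values with 2 decimals; a p-value of 0.05 was not counted as past the threshold. The header does not name the reference. Over 4532 genes the deposited log2 values correlated with the ratio to WT at 0.908 (rnh1∆rnh201∆) and 0.968 (pRnhA), while the ratio between the strains gave 0.112 and 0.49, so WT was taken as the reference. The depth is unknown, so no counting interval is given.

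limma-trend (limma 3.58.1, R 4.3.3) was fitted to log2(value + 1) in one model of all 8 libraries, leaving 5 residual degrees of freedom and no block. It took the 6456 genes whose mean reached 1, with Benjamini-Hochberg adjustment within each comparison at 0.05. This scale understates changes of low genes. The fit was also run on simulated data. Their noise was independent between libraries and capped at the median spread over genes. Libraries here varied together, so that run does not measure error rates in these data. Of 58 list genes, 57 were found. The rule for naming was the 10 genes, rnh1, rnh201, up to 4 called genes per list by size of change, and the 5 genes most correlated with each of ssa1, hsp16 and hsp104. The 10 genes and the lists were chosen with earlier results of these data known. Over 5342 genes with means from 50 upward, same-numbered WT and pRnhA libraries deviated together (0.289, 0.286 and 0.547). Libraries of unequal number and the same mating-type transcript did as well (0.279 and 0.303). Same-numbered libraries of these groups also share that transcript, so number and mating type cannot be told apart here. For WT and rnh1∆rnh201∆ the same-numbered values were -0.119 and 0.299. With 2 rnh1∆rnh201∆ libraries the deviations from the group mean mirror each other. These values thus cannot decide whether the numbers pair those groups.

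The available genome is of another build, so no coordinates or sequences are given, promoter motifs were not searched and levels were not compared per length.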

Additional observations from a re-analysis of the deposited data

How the results depend on the processing

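The rnh1∆rnh201∆ comparison, with 1 of the 10 genes called, depended most on the processing. It gave 3 genes with library totals in place of the deposited normalization, where 3.3% of all genes were called, against 0.294% in the main fit. It gave 6 in the authors' deposited table, all higher, against 6.94% of its genes. It gave 0 with no filter, a mean of at least 50, or only the compared groups, against 0.271%, 0.225% and 0.062% of all genes. With replicate number as a block it gave 0 (ssa1 1.04, limma adjusted p = 0.0561), against 0.341% of all genes. The data cannot show whether the numbers pair these groups. pRnhA, with 2 against 20.2% of all genes, gave 4 with library totals and 3 with the block, against 25.3% and 19.9%. It gave 5 in the authors' table, all higher, against 14% of its genes. With mat1-Mc libraries alone it gave 0, where 0 of all genes were called. Leaving out 1 WT or pRnhA library gave 0 to 8 genes in rnh1∆rnh201∆, 0 to 5 in pRnhA, and 0 between the strains. The counts in rnh1∆rnh201∆ and pRnhA were highest without WT replicate 1, where 19.6% and 33.6% of all genes were called. The fits that gave 0 called 0.0464% to 0.155% of all genes in rnh1∆rnh201∆, and 6.32% and 3.28% in pRnhA. The mating-type term moved neither count, with 0.434% (rnh1∆rnh201∆) and 20.4% (pRnhA) of all genes called.

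Over all genes, rnh1∆rnh201∆ went from 19 calls to 213 (library totals), 60 (trimmed mean), 52 and 12 (pseudocounts of 10 and 0.5), 12 (mean of at least 50), 4 (only the compared groups), 108 (robust variances) and 932 (authors' table), and 3 to 1264 with 1 library left out. pRnhA went from 1306 to 0 (mat1-Mc libraries alone) and 1960 (authors' table), and 212 to 2173 with 1 left out. Between the strains, 23 became 35 (no filter) and 72 (only the compared groups), and 5 to 93. Library totals moved the median of all genes to 0.11 in pRnhA and 0.07 in rnh1∆rnh201∆, and the share of calls that were higher from 43.9 to 77.1% and from 26.3 to 79.3%; the trimmed mean gave 36.7% for the latter. The causes were not tested.

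No called gene of the 10 changed direction. Small differences that turned sign were, with library totals, ssa2 (0.078) and hsp9 (0.097) in pRnhA and hsp104 between the strains (-0.038; -0.12 with the replicate block), and, in mat1-Mc libraries alone, hsf1 in rnh1∆rnh201∆ (-0.026), sks2 (-0.066) and hsp9 (0.078) in pRnhA and hsp104 between the strains (-0.015). With 1 library left out the ranges were -0.10 to 0.030 (ssa2), -0.088 to 0.21 (sks2) and -0.40 to 0.18 (hsp9) in pRnhA, -0.035 to 0.12 (hsf1) in rnh1∆rnh201∆, and -0.045 to 0.048 (hsp104) and -0.12 to 0.034 (hsf1) between the strains.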

Other observations

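Other list genes were chosen after their values were seen. hsp3105, of the Hsp31 family, was listed at 1 in all 3 WT libraries, 4, 3 and 3 in pRnhA, and 8 and 10 in rnh1∆rnh201∆; at so low a level, with values rounded to whole numbers, its log2 change of 2.31 (limma adjusted p = 0.0505) is imprecise. mdj1, a mitochondrial Hsp40 gene, was at 3600 in rnh1∆rnh201∆ replicate 2 and between 910 and 1400 in the other 7 libraries. The catalase gene ctt1 was at 230, 200 and 880 in WT, 710, 670 and 1000 in pRnhA, and 1100 and 860 in rnh1∆rnh201∆, and was thus high in the WT library that carries mat2-Pc. rds1 was at 670, 1600 and 1600 in WT, 640, 550 and 950 in pRnhA, and 480 and 520 in rnh1∆rnh201∆, with WT replicate 1 apart from the other WT libraries, as it is for hsp9.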
